A study of Homo sapiens with 4 samples.

Results

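The levels of 8 genes of the immediate early response were followed in LNCaP cells given a CRYM vector or an empty vector: the AP-1 factors JUN, JUNB, JUND and FOS, the transcription factors EGR1 and MYC, the immediate early gene IER2 and the phosphatase gene DUSP1. A gene was taken as the row that carries its symbol in a library's table, and otherwise as the row whose position best matches the gene's hg19 span, with an overlap of at least 0.4 of the joint length. All 8 genes were found in all 4 libraries, among 52320 joined loci, with 12 of the 32 rows matched by symbol and 20 by position. The established line LNCaP grew from a lymph node metastasis of human prostate cancer. Cells of passage 22, in medium with 10% serum, were transfected transiently with 2500 ng of plasmid and 12 µL of a Lipofectamine reagent, and RNA was taken 48 h later. The CRYM group (2 libraries) received a CRYM open reading frame clone in the vector pReceiver-M72, and the empty vector group (2 libraries) the empty control of the same vector. CRYM encodes mu-crystallin, which binds thyroid hormone. Transfection was transient and GFP was monitored, but no source used here gives the share of cells that took up plasmid, and each value averages over cells with and without it.

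Immediate early genes are transcribed from standing factors within minutes of a stimulus such as serum, a growth factor or stress, and most of their messages are short-lived. AP-1 is a dimer of basic leucine zipper proteins: Jun proteins pair with each other or with a Fos protein, whereas Fos proteins need a Jun partner. MAP kinases drive the response through factors bound to serum response and cyclic AMP response elements, and DUSP1 shuts it down by dephosphorylating those kinases. In prostate cancer cells JUN is known to bind the androgen receptor, and MYC is often overexpressed.

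The value of each locus is its FPKM, the fragments scaled by transcript length and by the mapped fragments of the library, a level that can be compared between genes per unit of length. A difference is on the log2(FPKM + 1) scale, CRYM minus empty vector, and was tested with limma over 10093 loci with Benjamini-Hochberg adjustment at 0.05. The locus taken as CRYM (hg19 chromosome 16, 21250195 to 21314404, unnamed in the files) had 65.3 and 72.5 FPKM in the CRYM libraries, against 1.17 and 0.977 FPKM in the empty vector libraries, a 64.1-fold higher level. Sequencing depth relative to empty vector library 1 was 0.842 and 1.07 in the CRYM libraries and 1.15 in empty vector library 2, and the absolute depth is unknown. Of the prostate luminal markers 2 of 10 were found by name with a matching row in every library. HOXB13 averaged 112.2 FPKM in CRYM cells and 128.1 FPKM in empty vector cells, and SPDEF 47.4 and 85.7 FPKM, both lower in CRYM cells by limma. The fragments implied by their deposited intervals, CRYM over empty vector at equal depth, had ratios of 1.12 for HOXB13 and 0.985 for SPDEF. These ratios depart from the lower FPKM, for a reason that was not tested. The immune gene HLA-DRA averaged 1.76 FPKM in CRYM cells and 2.35 FPKM in empty vector cells, and the endothelial gene CLDN5 0.185 and 0.243 FPKM. No basal or fibroblast marker was found by the same rule, and the part of the markers in the results was not tested.

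Of the 8 genes, 7 were tested: JUN and MYC were higher in CRYM cells, JUND, JUNB and FOS were lower, and IER2 and DUSP1 did not pass. EGR1 stayed below the level for testing, which asked for 1 FPKM or more in 2 or more libraries. Over all tested loci 33.3% were called, 15.7% higher and 17.7% lower. The median difference was -0.40 over the 7 tested genes and 0.01 over all tested loci. The groups did not overlap at 6 of these 7 genes, and at 72.2% of all tested loci. All 5 calls were lost when any 1 of the 4 libraries was left out, a fit with 1 residual degree of freedom. Rescaling each library to the same total over all rows it lists shifted the median tested locus by -0.52, left JUN without a call and put MYC lower. Relative to that shift JUN stood at 0.59 and MYC at 0.15. Subtracting the shift largely undoes the rescaling, so these 2 values are no separate check of the calls. Those totals were 1.27e+07 and 1.21e+07 FPKM in the CRYM libraries, against 8.35e+06 and 7.92e+06 FPKM in the empty vector libraries. Over joined loci the totals were 499708 to 545170 FPKM, so rows outside the joined loci set most of that scale.

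**Figure D1:**
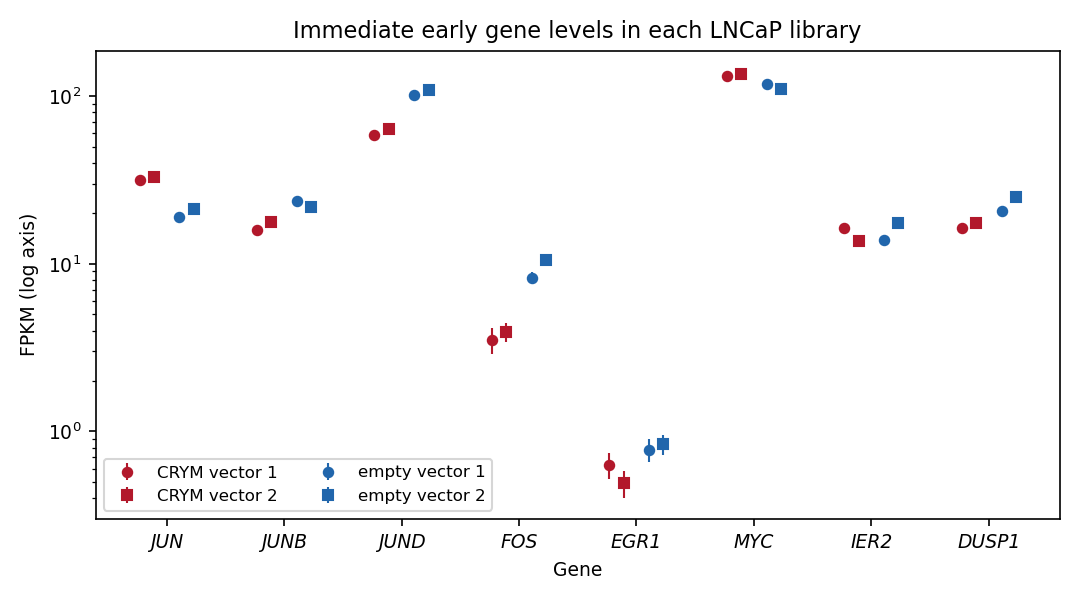
FPKM (log axis) of each immediate early gene in the CRYM libraries (red, left) and the empty vector libraries (blue, right), with circles for replicate 1, squares for replicate 2 and bars for the deposited interval. JUN and MYC lie higher and JUNB, JUND, FOS, EGR1 and DUSP1 lower in both CRYM libraries, while IER2 overlaps between the groups.

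Among the 3 Jun genes, all of them intronless, JUN rose and JUND and JUNB fell, while the FPKM summed over the 3 was 106.3 and 114.5 in the CRYM libraries, against 143.4 and 151.9 in the empty vector libraries. JUN (hg19 chromosome 1, 59246465 to 59249785), the strongest activator of the family, had 31.6 and 33.0 FPKM in CRYM cells, against 18.9 and 21.3 FPKM in empty vector cells. Both CRYM libraries stood above both empty vector libraries, and in bulk RNA fewer or more cells with the message cannot be told apart from less or more of it per cell. The difference was 0.66 (SE 0.075), a 1.60-fold higher level, with a limma adjusted p of 0.0185. The deposited intervals imply 5874 and 7665 JUN fragments in the CRYM libraries, against 4186 and 5562 in the empty vector libraries, which at equal depth is a ratio of 1.57, close to that of the FPKM. These numbers cover counting error only.

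JUND, which is known to be expressed steadily and to restrain growth in several cell types, had the highest FPKM of the Jun genes in every library. It lies at hg19 chromosome 19, 18390563 to 18392432, and had 58.8 and 63.6 FPKM in CRYM cells, against 100.8 and 108.9 FPKM in empty vector cells. The groups were far apart compared with the spread within each. The level was 1.71-fold lower in CRYM cells, a difference of -0.77 (SE 0.067; limma adjusted p = 0.0128). The fragments implied by its intervals were 1576 and 1730 in the CRYM libraries and 1875 and 1971 in the empty vector libraries. At equal depth their ratio was 0.972, which departs from the fall in FPKM, for a reason that was not tested. They rose little between the CRYM libraries, while relative depth rose from 0.842 to 1.07, so they do not show whether reads changed. In each library they were fewer than those of JUN, by more than the longer row of JUN accounts for. The ranking of JUND above JUN thus rests on FPKM alone, and the implied fragments do not show it.

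JUNB, a weaker activator that can oppose JUN at shared sites, lies at hg19 chromosome 19, 12902310 to 12904124. It had 16.0 and 17.8 FPKM in CRYM cells, against 23.7 and 21.7 FPKM in empty vector cells. The groups did not overlap, and the 1.34-fold lower level gave a difference of -0.40 (SE 0.082; limma adjusted p = 0.0463), close to the threshold. The JUNB call was lost in 11 of 17 alternatives, among them quantile normalization (limma adjusted p = 0.0573), no variance trend (0.0512), the wider join by overlap (0.0700), no filter (0.0958) and rescaling over joined loci (0.130). The implied JUNB fragments at equal depth stood at 0.915 of the empty vector level, a smaller difference than that of the FPKM. From CRYM library 1 to CRYM library 2 they went from 956 to 1157, a smaller rise than that of the depth although the FPKM rose. The reason was not tested.

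The make-up of the Jun transcripts differed, and such shares within a library do not depend on how libraries are scaled. JUN made up 29.7% and 28.8% of the summed Jun FPKM in the CRYM libraries, against 13.2% and 14.0% in the empty vector libraries. JUND made up 55.3% and 55.6% in the CRYM libraries, against 70.3% and 71.7% in the empty vector libraries. JUNB kept overlapping shares, with 15.0% and 15.6% in CRYM cells and 16.5% and 14.3% in empty vector cells. These shares rest on FPKM, and the implied JUND fragments, at a ratio of 0.972 at equal depth, do not show the fall of JUND. With 2 libraries a group no exact permutation test of these shares can reach 0.05, and none is given.

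**Figure D2:**
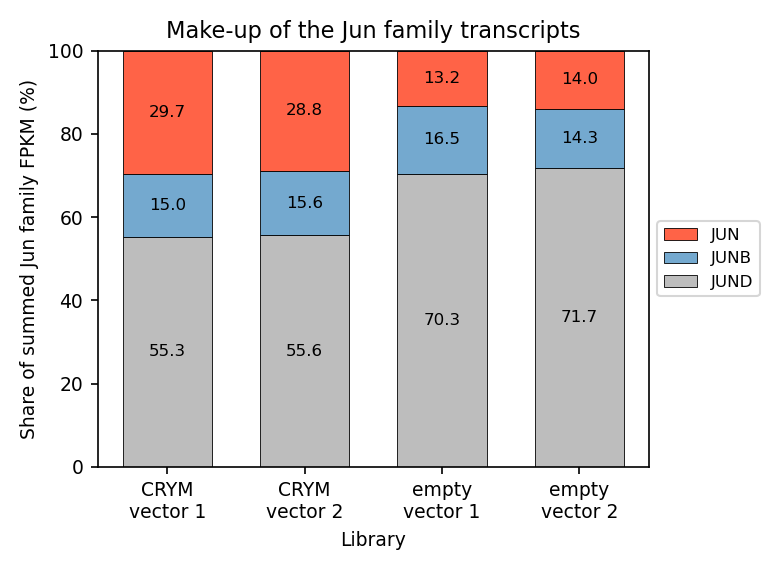
Share of the summed FPKM of JUN, JUNB and JUND taken by each gene, in percent, in the 4 libraries. JUN takes 29.7% and 28.8% in the CRYM libraries and 13.2% and 14.0% in the empty vector libraries, and JUND takes 55.3% and 55.6% in the CRYM libraries and 70.3% and 71.7% in the empty vector libraries.

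FOS, the Fos protein that forms the classical AP-1 dimer with JUN, fell most among the 7 tested genes of the set of 8. Its locus (hg19 chromosome 14, 75745477 to 75748933) had 3.53 and 3.92 FPKM in CRYM cells, against 8.27 and 10.6 FPKM in empty vector cells. Both CRYM libraries were below both empty vector libraries, and the empty vector libraries differed more between themselves than the CRYM libraries did. FOS was 2.53-fold lower in CRYM cells, a difference of -1.13 (SE 0.142; limma adjusted p = 0.0212). The implied FOS fragments were 131 and 223 in the CRYM libraries, against 556 and 861 in the empty vector libraries. At equal depth their ratio was 0.279, against 0.395 for the FPKM. The fragments depart from the FPKM here too, for a reason that was not tested, and are no separate evidence of the fall. FOS stayed called lower under each scaling tried.

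JUN and FOS thus moved apart. The level of JUN was 8.95 and 8.43 times that of FOS in the CRYM libraries, against 2.29 and 2.02 times in the empty vector libraries. The mean of this ratio was 8.69 ± 0.369 in CRYM cells and 2.15 ± 0.190 in empty vector cells (SD, n = 2 each), 4.03-fold higher in CRYM cells. JUN over JUND was 0.537 and 0.519 in the CRYM libraries, against 0.188 and 0.196 in the empty vector libraries. A ratio shows that a pair changed unequally, not how much either gene changed, and the ratios were not tested.

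The promoters of the 4 AP-1 genes are shown because JUN stood higher while the other 3 stood lower. The sequences are the 250 bases before the RefSeq transcript start, on the gene's own strand, build GRCh38.p14, with motif matches in capitals. JUN is chr1:58784048-58784297 (minus strand), JUNB chr19:12791236-12791485 (plus), JUND chr19:18281623-18281872 (minus) and FOS chr14:75278578-75278827 (plus).
JUN: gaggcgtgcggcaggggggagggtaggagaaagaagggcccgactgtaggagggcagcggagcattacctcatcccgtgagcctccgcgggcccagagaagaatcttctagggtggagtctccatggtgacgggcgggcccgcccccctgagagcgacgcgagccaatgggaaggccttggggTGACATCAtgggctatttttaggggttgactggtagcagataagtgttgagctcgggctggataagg
JUNB: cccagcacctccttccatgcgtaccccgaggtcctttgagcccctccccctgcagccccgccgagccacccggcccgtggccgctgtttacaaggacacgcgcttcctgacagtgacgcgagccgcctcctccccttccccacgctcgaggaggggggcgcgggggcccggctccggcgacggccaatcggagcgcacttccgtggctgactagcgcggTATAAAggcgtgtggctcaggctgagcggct
JUND: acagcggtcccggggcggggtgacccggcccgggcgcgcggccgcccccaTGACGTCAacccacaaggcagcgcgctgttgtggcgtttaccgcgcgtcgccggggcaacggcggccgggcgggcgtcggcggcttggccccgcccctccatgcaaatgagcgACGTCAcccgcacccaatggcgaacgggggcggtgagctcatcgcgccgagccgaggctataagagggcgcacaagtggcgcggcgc
FOS: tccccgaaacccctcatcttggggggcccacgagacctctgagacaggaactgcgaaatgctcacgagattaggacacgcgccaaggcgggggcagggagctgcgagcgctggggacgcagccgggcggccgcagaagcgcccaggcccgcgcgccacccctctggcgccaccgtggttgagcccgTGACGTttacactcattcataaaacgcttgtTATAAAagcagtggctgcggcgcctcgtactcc
The motifs searched on both strands were the cyclic AMP response element (CRE) TGACGTCA, its core TGACGT, which lies inside the full element, the JUN-type site TGACATCA, the AP-1 site TGACTCA, the TATA motif TATAAA and the CArG box of serum response factor. Over 35116 RefSeq promoters of the same length, 1.65% hold the CRE, 7.10% its core, 2.37% the JUN-type site, 4.20% the AP-1 site, 10.7% the TATA motif and 1.16% a CArG box.

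The JUN window holds 1 match, the JUN-type site at 67 to 60 bases before the start. The FOS window holds a CRE core at 64 to 59 bases and a TATA motif at 33 to 28 bases before the start. JUND holds a full CRE at 200 to 193 bases and another core at 87 to 82 bases, and JUNB only a TATA motif, at 31 to 26 bases. Of the genes whose windows are not printed, EGR1 holds 2 CArG boxes, at 105 to 96 and 83 to 74 bases, with CRE cores at 136 to 131 and 67 to 62 bases. DUSP1 holds a full CRE at 125 to 118 bases, a further core at 172 to 167 bases and a TATA motif at 30 to 25 bases, and no motif matched in the IER2 window. A match describes letters in this window only. Sequence further from the start was not searched, so a gene without a match here may hold the motif elsewhere.

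**Figure D3:**
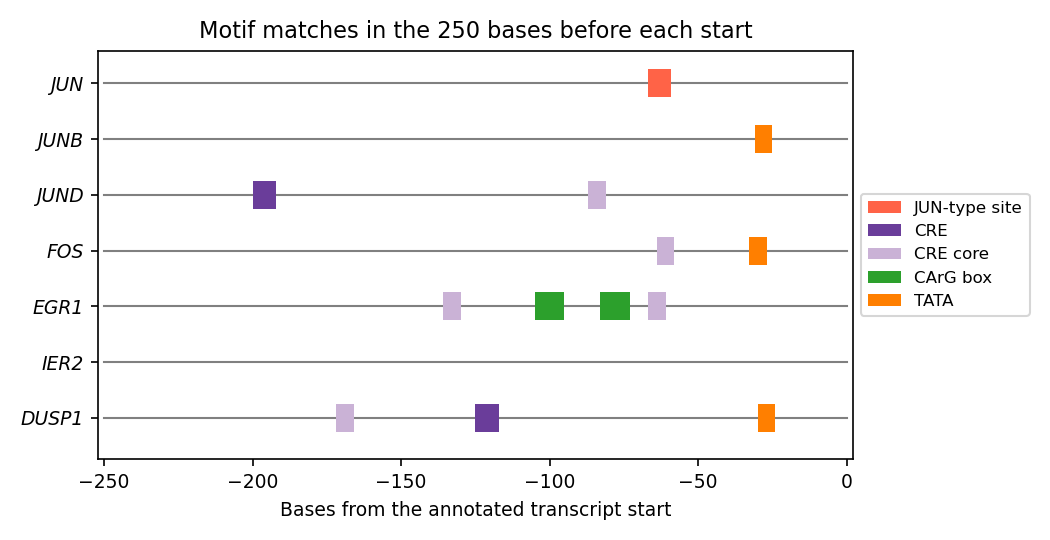
Motif matches in the 250 bases before the transcript start of 7 genes, by distance from the start in bases, with boxes to scale. JUN has the JUN-type site at 67 to 60 bases, while FOS, JUND, EGR1 and DUSP1 hold CRE cores and EGR1 alone of the 7 holds CArG boxes within this window. Sequence further out was not searched.

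MYC, a transcription factor that drives growth and the cell cycle, had the highest level of the 8 genes in every library. Its locus (hg19 chromosome 8, 128747680 to 128753674) had 131.9 and 134.7 FPKM in CRYM cells, against 117.8 and 109.4 FPKM in empty vector cells. The groups did not overlap, but the 1.17-fold higher level, a difference of 0.23 (SE 0.048), passed by a narrow margin (limma adjusted p = 0.0496). The MYC call was lost in 12 of 17 alternatives, among them a pseudocount of 0.1 (limma adjusted p = 0.0503), rescaling by the median log ratio (0.0510) and no filter (0.105), and turned lower over all rows. The implied MYC fragments were 3752 and 3849 in the CRYM libraries and 3755 and 3812 in the empty vector libraries. At equal depth their ratio was 1.14, but they were near the same although the depth differed, so they do not show whether reads changed. Within a library MYC stood at 2.24 and 2.12 times JUND in CRYM cells, against 1.17 and 1.00 times in empty vector cells.

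EGR1, a zinc finger factor that serum induces through its CArG boxes, was barely expressed. It lies at hg19 chromosome 5, 137801179 to 137805004, and had 0.635 and 0.493 FPKM in CRYM cells, against 0.778 and 0.840 FPKM in empty vector cells. Both CRYM libraries were lower, but in a fit of all loci without the filter the difference of -0.21 (SE 0.113) did not pass (limma adjusted p = 0.419). Its intervals imply 125 and 122 fragments in the CRYM libraries and 173 and 216 in the empty vector libraries.

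IER2, a small nuclear protein of the same response, did not separate the groups. Its locus (hg19 chromosome 19, 13261229 to 13265722) had 16.3 and 13.6 FPKM in CRYM cells and 13.9 and 17.5 FPKM in empty vector cells, a difference of -0.06 (SE 0.163; limma adjusted p = 0.797). The antisense gene CTC-250I14.6 lies inside it, with 41.8 and 34.2 FPKM in CRYM cells and 36.2 and 36.2 FPKM in empty vector cells. The library kit keeps strand, but no source used here says whether the quantification used it, so reads of the pair may not be separated.

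DUSP1, the phosphatase that inactivates MAP kinases in the nucleus, had 16.3 and 17.6 FPKM in CRYM cells, against 20.7 and 25.2 FPKM in empty vector cells. It lies at hg19 chromosome 5, 172195093 to 172198198, and in empty vector library 2 its row begins further out than in the other 3 libraries. The groups did not overlap, yet the difference of -0.41 (SE 0.121) did not pass (limma adjusted p = 0.0940). Its difference is the size of that of JUNB, and its implied fragments were 1809 and 2482 in the CRYM libraries and 2679 and 1441 in the empty vector libraries, which overlap. The DUSP1 fragments did not follow the FPKM between the empty vector libraries.

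The order of the levels also differed. In CRYM cells it ran MYC (133.3 ± 2.04), JUND (61.2 ± 3.44), JUN (32.3 ± 1.03), DUSP1 (16.9 ± 0.935), JUNB (16.9 ± 1.29), IER2 (15.0 ± 1.93), FOS (3.72 ± 0.277) and EGR1 (0.564 ± 0.101), in mean FPKM ± SD with n = 2. In empty vector cells it ran MYC (113.6 ± 5.91), JUND (104.9 ± 5.74), DUSP1 (22.9 ± 3.20), JUNB (22.7 ± 1.42), JUN (20.1 ± 1.70), IER2 (15.7 ± 2.56), FOS (9.42 ± 1.62) and EGR1 (0.809 ± 0.0437). JUN stood above DUSP1 and JUNB in CRYM cells and below both means in empty vector cells. DUSP1 overlapped JUNB in both groups and JUNB overlapped IER2 in CRYM cells, and the other neighbours in each order did not overlap. In empty vector cells MYC and JUND were separated only narrowly, as were JUNB (lowest 21.7 FPKM) and JUN (highest 21.3 FPKM). JUN also overlapped DUSP1 there, at 18.9 and 21.3 FPKM against 20.7 and 25.2 FPKM.

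Of 4 lists of related genes, 21 of 116 genes could be found by name, 13 were tested, and 2 were higher and 2 lower, with a median difference of 0.01, the same as over all tested loci, where 33.3% were called. These counts moved with the settings, to 1 higher and 0 lower on rescaling over joined loci, 2 and 4 with quantile normalization, and 0 and 11 on rescaling over all rows. Of 57 further immediate early and early response genes 15 were found and 9 tested. BTG2, an antiproliferative gene, had 20.9 and 20.7 FPKM in CRYM cells, against 12.4 and 12.9 FPKM in empty vector cells (difference 0.68, SE 0.034; limma adjusted p = 0.00676). RHOB, a short-lived GTPase of endosomes and actin, had 65.7 and 67.7 FPKM in CRYM cells, against 53.7 and 51.6 FPKM in empty vector cells (difference 0.34, SE 0.035; limma adjusted p = 0.0169), but it lost the call on rescaling over joined loci (0.0729) and over those of at least 300 bp (0.0850), and was called lower at -0.26 over all rows (0.0268). BTG2 lost its call over all rows (limma adjusted p = 0.262). Its implied fragments at equal depth had a ratio of 1.31, less than the 1.64-fold of the FPKM, for a reason that was not tested. Both genes lay higher in both CRYM libraries.

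ID3, an inhibitor of helix-loop-helix factors, fell to 2.23 and 3.87 FPKM in CRYM cells, against 8.15 and 9.43 FPKM in empty vector cells (difference -1.30, SE 0.253; limma adjusted p = 0.0435). SNAI1, a repressor of epithelial genes, fell to 0.899 and 0.960 FPKM in CRYM cells, against 1.69 and 1.52 FPKM in empty vector cells (difference -0.43, SE 0.074; limma adjusted p = 0.0350). ID3 and SNAI1 are, like FOS, separated between the groups, and both lost the call without the filter, on the 2 rescalings over joined loci and with loci joined by overlap (limma adjusted p = 0.0644 for ID3 and 0.0502 for SNAI1). The most abundant of the 5 that did not pass were KLF10, ZFP36L2 and CSRNP1, with differences of -0.14, 0.21 and 0.15. The calls of BTG2, RHOB and ID3 were lost when any 1 library was left out, and that of SNAI1 without either CRYM library, while without an empty vector library SNAI1 was too low to be tested.

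The AP-1 partner list had 3 of 15 genes found and 1 tested. MAFF, a small Maf protein, had 1.26 and 1.33 FPKM in CRYM cells, against 1.76 and 2.18 FPKM in empty vector cells, and did not pass (difference -0.37, SE 0.102; limma adjusted p = 0.0834), though it did with quantile normalization (0.0473) and over all rows (0.0156). Of 16 feedback inhibitors of MAP kinase 3 were found and none passed by limma, with 1 at an unadjusted p under 0.05. The phosphatase gene DUSP2 had 5.30 and 5.87 FPKM in CRYM cells, against 6.62 and 6.67 FPKM in empty vector cells (difference -0.22), while DUSP7 and DUSP14 differed by 0.01 and 0.12. DUSP2 was called lower with quantile normalization (-0.31; limma adjusted p = 0.0481), and all 3 were called lower on rescaling over all rows. None of the 28 kinases and upstream factors listed was found by name with a matching row in every library, and none was analysed here.

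**Figure D4:**
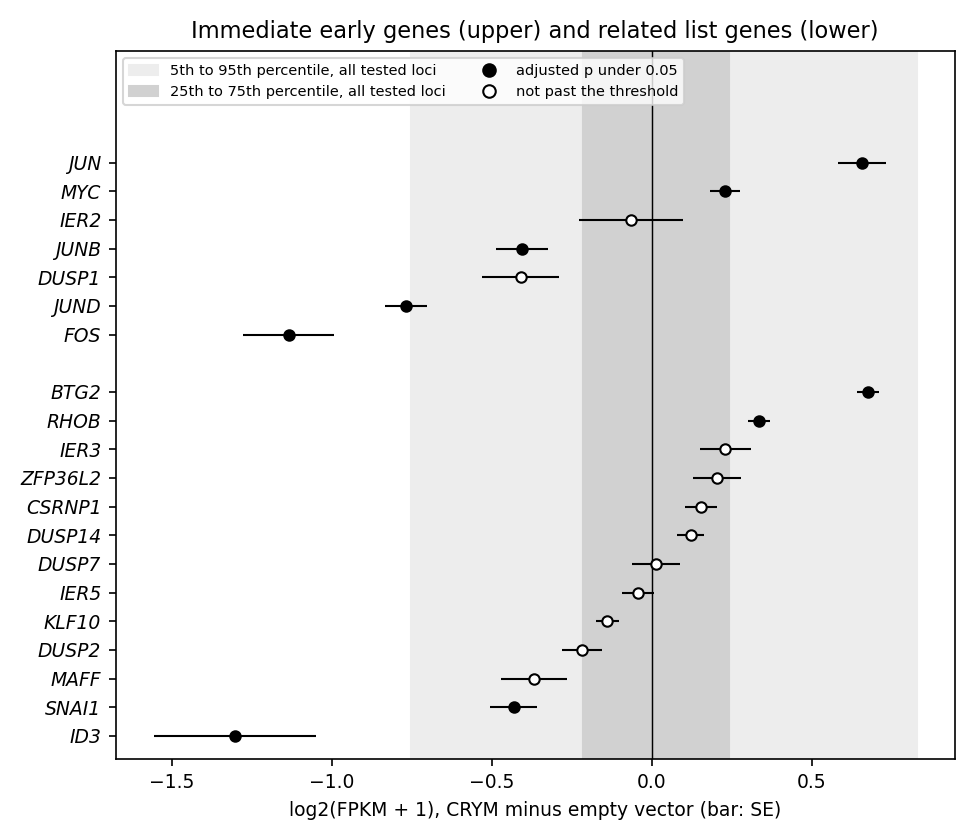
Difference in log2(FPKM + 1), CRYM minus empty vector, with SE bars, for the 7 tested immediate early genes (upper) and 13 related genes (lower). Filled points passed at an adjusted p under 0.05, and the bands mark the 5th to 95th and 25th to 75th percentiles over all 10093 tested loci. FOS at -1.13 and JUND at -0.77 lie below the 5th percentile (-0.75), and JUN at 0.66 lies above the 75th (0.24).

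The genes most like FOS and JUND, those with the 2 largest differences in size, were sought among 804 named protein-coding tested loci by the distance between centred log2 profiles over the 4 libraries. Nearest to FOS were FGF21 (distance 0.212), FAM43A (0.239) and RASD1 (0.242). FGF21, the gene of a stress hormone, had 0.144 and 0.260 FPKM in CRYM cells, against 1.67 and 1.71 FPKM in empty vector cells, and FAM43A had 9.11 and 9.66 FPKM in CRYM cells, against 23.9 and 25.2 FPKM in empty vector cells. RASD1, a Ras-related protein gene, had 2.58 and 2.93 FPKM in CRYM cells, against 7.95 and 8.22 FPKM in empty vector cells. Nearest to JUND were DCLRE1B (0.0582), BRI3BP (0.0784) and UBE2S (0.0941), and UBE2S had 46.0 and 47.7 FPKM in CRYM cells, against 79.9 and 79.5 FPKM in empty vector cells. On the log2(FPKM + 1) scale the difference of FGF21 was -1.16, close to that of FOS, although its FPKM fell by a larger factor. The added 1 understates the change of so low a gene. With 4 libraries in 2 groups many loci share such a profile, so this describes the ranking only.

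The dependence of the calls on the settings was uneven across the genes. The difference of FOS ran between -1.65 and -0.97 and that of JUND between -1.37 and -0.67 over the settings tried. JUN stayed between 0.58 and 0.74 except when libraries were rescaled over all rows, where it was 0.08. JUN and JUND also lost their calls on rescaling over joined loci of at least 300 bp (limma adjusted p = 0.0534 and 0.0572). JUNB stayed negative at -0.98 to -0.33, and IER2 changed sign when CRYM library 2 or empty vector library 2 was left out. Over all rows IER2 and DUSP1 were called lower (limma adjusted p = 0.0445 and 0.0120).

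**Figure D5:**
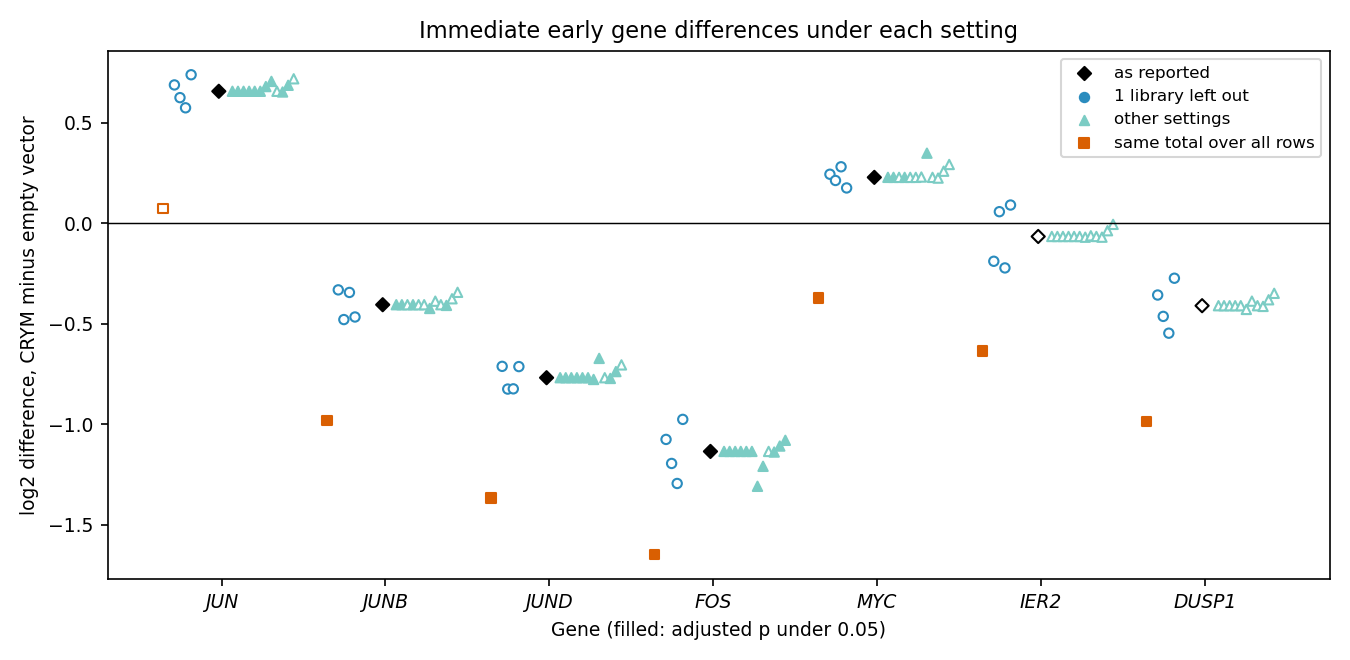
Difference in log2 FPKM, CRYM minus empty vector, of the 7 tested genes as reported (diamonds), with 1 library left out (circles), under other settings (triangles) and with libraries rescaled to the same total over all rows (squares). Filled points passed at an adjusted p under 0.05; no circle is filled, and MYC turns from 0.23 to -0.37 under the rescaling over all rows.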

How the data were processed

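RNA of 4 LNCaP libraries was sequenced as single reads of 50 bp from a stranded mRNA kit, per the labels' protocols. Cufflinks 2.2.1, Cuffdiff, Bowtie2 2.2.9 and TopHat2 2.1.1, with builds hg19 and GRCh37, are named per the submitters' processing notes, without roles. The deposited values are FPKM with their interval bounds and a status, 1 table per library, per the file headers. Loci were joined by identical position (52318), and gene rows of other positions were then added. DUSP1 is the 1 gene of the 8 without identical position. Positions are counted from 1.

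limma 3.58.1 (R 4.3.3) was fitted on log2(FPKM + 1) with a variance trend over loci that reached 1 FPKM in 2 or more libraries with status OK in all 4. The pseudocount understates changes of low genes. Folds divide the mean FPKM of the groups. The labels call the libraries biological replicates but name no separate cultures, and a p-value then reflects only how these samples spread, which may be technical. Implied fragments assume that a deposited interval spans 2 SD on each side. Relative depth comes from loci of 60 to 63 bp, where values above 0 are whole multiples of 1 read within 0.02. The fit was tested on simulated data, and 17 alternatives were run. Genes named are the 8 genes, CRYM, list genes past the threshold and, per list, the 3 most abundant not past it, with the 3 loci most like FOS and JUND. The genes, lists and rules were chosen with earlier results of these data known. Python 3.11.15, pandas 2.3.3 and bedtools 2.31.1 were used.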

Additional observations from a re-analysis of the deposited data

Results flagged for a closer look

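Rows that overlap the genes were kept here only if every listed CRYM value stood above every listed empty vector value. Their direction therefore follows from this choice and is not a result. Inside DUSP1 a separate unnamed row of 109 bp (hg19 chromosome 5, 172196829 to 172196937) is listed only in CRYM library 2, at 95.7 FPKM with a deposited interval of 47.9 to 143.6, which implies 16 fragments. Around JUNB an unnamed assembled row (109738 bp long in CRYM library 1) had 44.4 and 37.5 FPKM in the CRYM libraries, against 33.2 and 29.5 FPKM in the empty vector libraries. Its deposited intervals overlap between the groups, from 29.8 to 58.9 in CRYM library 1 and from 21.6 to 44.7 in empty vector library 1, and JUNB itself moved the other way.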

How the results depend on the processing

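As reported, 2 of the 8 genes were higher and 3 lower, and over all loci 1582 were higher and 1783 lower. Leaving out each library in turn gave 0 to 0 genes higher and 0 to 0 lower, and 0 to 0 loci higher and 0 to 8 lower (3380 to 3702 at an unadjusted p under 0.05), with JUN at 0.58 to 0.74, FOS at -1.29 to -0.97, IER2 at -0.22 to 0.0918 (0.0587 without CRYM library 2) and DUSP7 at -0.0615 to 0.0899. The left-out fits and the replicate block have 1 residual degree of freedom. With the replicate block limma called 0 genes higher and 0 lower, and 0 loci in either direction, while 3820 had an unadjusted p under 0.05. The labels do not pair the numbers, and the correlation over loci of the deviations of libraries with one number was 0.0361. JUNB, one of the 3 lower, lost its call in 11 of 17 alternatives. Only 1 gene was higher with a pseudocount of 0.1, on rescaling by the median log ratio, without a variance trend and with loci joined by overlap. Without the filter 1 gene was higher, with 788 loci higher and 1083 lower. Rescaling to the same total over joined loci gave 1 gene higher, with 684 loci higher and 623 lower. Rescalings added after seeing the data were over joined loci of at least 300 bp (0 genes higher and 1 lower, 553 loci higher and 395 lower, IER5 at 0.00722) and over all rows (0 genes higher and 6 lower, 288 loci higher and 6341 lower). Over all rows MYC (-0.37), RHOB (-0.26), IER3 (-0.26), ZFP36L2 (-0.31), CSRNP1 (-0.34), DUSP7 (-0.51) and DUSP14 (-0.44) changed sign, and DUSP7 did so with quantile normalization (-0.0682). The share of higher calls was 47.0%, against 58.3% and 4.34% under these 2 rescalings, and the cause was not tested. EGR1 was left out by its FPKM, and the absolute depth is unknown.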

Other observations

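Some low genes of the lists, chosen after their values were seen and too low to be tested, also did not overlap between the groups. The same held for 72.2% of all tested loci. CTGF, a matrix protein gene that serum induces, had 0.223 and 0.142 FPKM in CRYM cells, against 0.345 and 0.423 FPKM in empty vector cells. EDN1, the gene of the peptide endothelin, had 0.0393 and 0.0807 FPKM in CRYM cells, against 0.149 and 0.114 FPKM in empty vector cells. PHLDA1 went the other way, with 0.329 and 0.480 FPKM in CRYM cells, against 0.313 and 0.265 FPKM in empty vector cells. Its deposited intervals overlap between the groups, from 0.272 to 0.386 in CRYM library 1 and from 0.255 to 0.370 in empty vector library 1. The intervals imply 25 and 20 fragments for CTGF in the CRYM libraries and 45 and 64 in the empty vector libraries. For EDN1 they imply only 5 and 13 fragments in the CRYM libraries and 22 and 19 in the empty vector libraries.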
